A study of Mus musculus with 2 samples.

Results

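Molecular chaperones are proteins that bind other proteins while these fold, unfold or assemble, and co-chaperones are the proteins that steer them. The genes described here were the protein-coding rows named as HSP70 (Hspa and Hsph1), HSP90, HSP60 and HSP10 (Hspd1 and Hspe1), small heat shock (Hspb), J-domain (Dnaja, Dnajb and Dnajc), chaperonin (Cct) or BAG genes. Cryab, Tcp1, Clu, Stip1, Hsf1 and Hsf2 were added by name. The rule used names alone and found 93 genes among 21821 protein-coding rows and 55323 rows in all. The label was checked against the annotation in the deposited table. The term unfolded protein binding stood beside 39 of the 93 genes (41.9%) and beside 0.440% of all protein-coding rows.

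The cells were TgS1, a mouse Schwann cell line of the genotype TTR V30M tg, which carries a human transthyretin transgene with the V30M allele. Both libraries came from this line, 1 after long-term culture in DMEM and 1 after long-term culture in SCM, a medium whose name the labels do not spell out. The design text of the series names the first medium S-DEMEM where the sample titles have DMEM, and whether these are the same medium is not stated. V30M transthyretin misfolds and forms amyloid in hereditary transthyretin amyloidosis, and Schwann cells are the glia of peripheral nerve. With 1 library per medium there was no replicate check, and every difference below compares 2 libraries. The labels do not name the promoter of the transgene, and no group without the transgene was analysed here.

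HSP70 proteins hold short unfolded stretches of a client in a cycle driven by ATP. J-domain proteins deliver clients and start ATP hydrolysis, and exchange factors such as the BAG proteins and the HSP110 proteins release the nucleotide. HSP90 takes over clients at a later stage from HSP70 through the adaptor Stip1, and the ring-shaped chaperonins enclose proteins such as actin and tubulin. Small heat shock proteins hold unfolding proteins without using ATP, and clusterin (Clu) does so outside the cell. The heat shock factor Hsf1 drives many cytosolic members after heat or proteotoxic stress, whereas the unfolded protein response drives those of the endoplasmic reticulum (ER).

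Reads assigned to genes numbered 29085791 in the DMEM library and 36666676 in the SCM library. Levels are in FPKM, a fragment count scaled by gene length and by library total, and intervals are 95% exact (Clopper-Pearson) counting intervals of a ratio of FPKM values. Gene length is that of the deposited table, so comparisons of levels between genes depend on it. The ratio of 1 gene between the libraries does not. A gene was counted as measured where 1 or both libraries gave it 1 FPKM or more. Differences are log2((FPKM in SCM + 1) / (FPKM in DMEM + 1)), a scale that understates the ratio of low genes, whereas folds in the text are plain FPKM ratios. Intervals and floors cover counting error only, and amplified copies of 1 molecule may be counted more than once. All 12 Schwann cell markers of the list used were measured, with summed levels of 4428 FPKM in DMEM and 4666 FPKM in SCM. Of the markers of other cell types, 0 of 5 for fibroblasts, 1 of 5 for macrophages (Cd68), 0 of 4 for endothelium, 1 of 5 for neurons (Tubb3) and 0 of 4 for mural or muscle cells were measured. Of these markers of other cell types, Col1a1, Lum, Adgre1, Cdh5, Kdr, Rbfox3, Elavl4 and Syt1 were at 0 reads in both libraries. Other markers of the same lists had reads, such as Pdgfra with 50 in DMEM and 15 in SCM. Pecam1 had 10 and 5 reads and Snap25 had 18 and 40. The measured neuron marker Tubb3 had 3273 reads in DMEM and 3081 reads in SCM. In bulk RNA, fewer cells of a type and less RNA per cell cannot be told apart.

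Most chaperone genes stood at nearly the same level in both media. Of the 93 genes 77 were measured, and their levels ran from 1.11 to 948 FPKM in DMEM, with a median of 12, and from 0.838 to 996 FPKM in SCM, with a median of 12.7. On the log2(FPKM + 1) scale 1 gene, Hspa12a, was at least 2-fold higher in SCM and 0 were at least 2-fold lower. Among all 10081 measured protein-coding rows the same limits took 2.48% higher and 1.44% lower. At 1.5-fold, Hspa12a alone was higher and Hsp90aa1, Dnajc12, Hspa9 and Bag3 were lower, which is 1.30% and 5.19% of the measured chaperone genes. The shares of all measured protein-coding rows at 1.5-fold were 6.44% higher and 4.99% lower, so the lower share was near that background and the higher share below it. Bag3 and Dnajc12 were within 1.5-fold with a pseudocount of 3 FPKM, as were Bag3 and Hspa9 with the libraries scaled to a median ratio of 0, so Hsp90aa1 was the 1 of the 4 lower genes past the limit in both. The median log2 difference was -0.07 over the chaperone genes and -0.03 over all measured protein-coding rows, with quartiles of -0.23 and 0.14 against -0.22 and 0.17. In all, 33 chaperone genes lay above 0 and 44 below (57.1%), and of all measured protein-coding rows 54.4% lay below 0, the background for the counts of direction in each group. The counting interval lay above 1 for 22 genes (28.6%), below 1 for 36 (46.8%) and held 1 for 19 (24.7%). Over all measured protein-coding rows these shares were 31.4%, 38.8% and 29.7%. Of the 56 chaperone genes with at least 5 FPKM in both libraries, 0 lay outside the central 95% of the 5850 protein-coding rows at such levels, which ran from -0.76 to 0.80 in log2 difference.

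A few genes made up most of the chaperone RNA. Summed over all 93 genes, the level was 4486 FPKM in DMEM and 4217 FPKM in SCM. In reads that is 482374 of the DMEM library (1.66%, exact binomial interval 1.65% to 1.66%) and 573708 of the SCM library (1.56%, 1.56% to 1.57%). Hsp90ab1 and Hspa8 together gave 34.2% of the summed FPKM in DMEM and 35.5% in SCM, and the 10 most abundant genes 68.5% and 69.4%. These 10 were Hsp90ab1, Hspa8, Hsp90b1, Cryab, Hsp90aa1, Cct2, Hspa5, Tcp1, Dnajb12 and Hspa9.

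**Figure D1:**
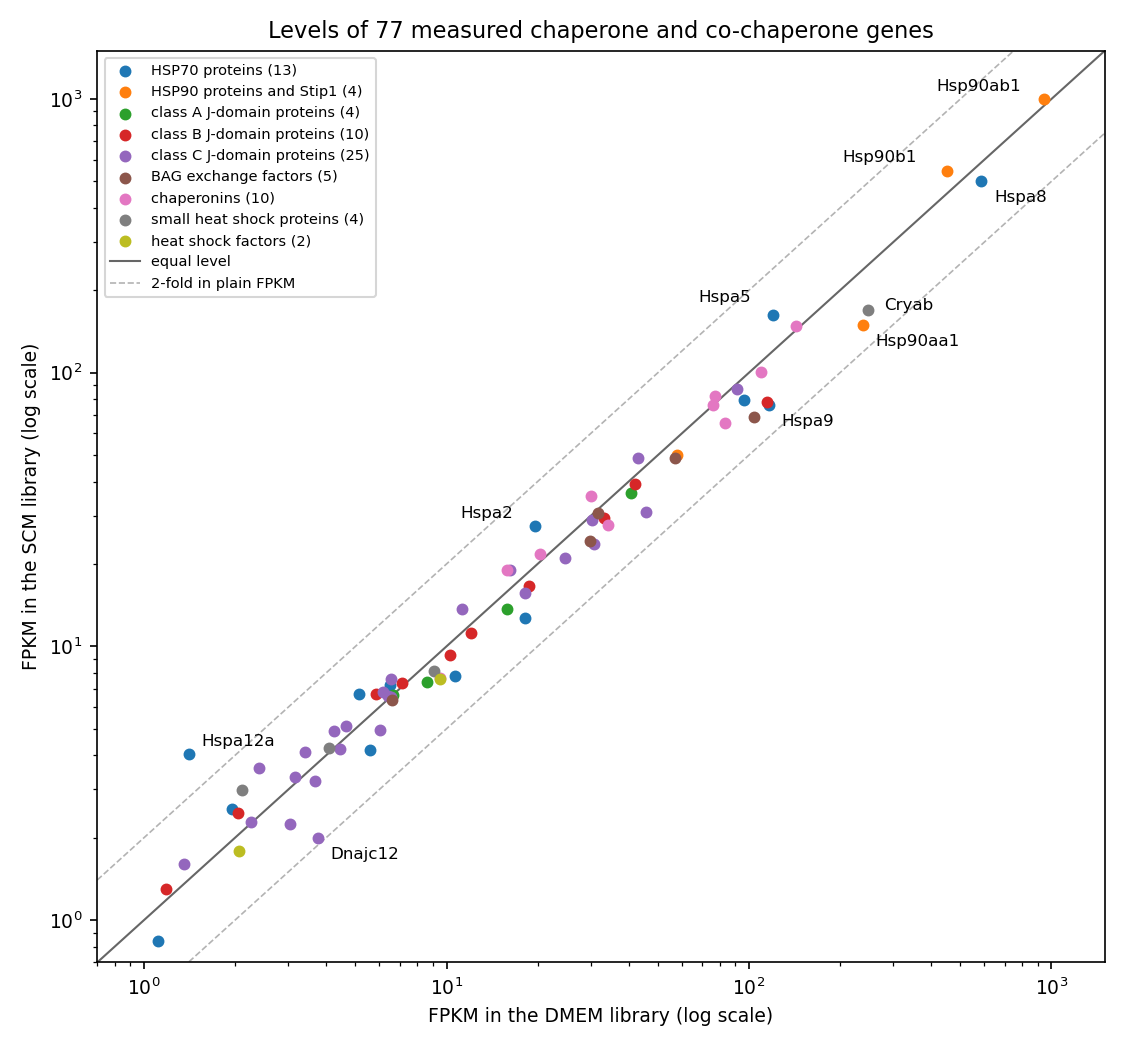
Levels of the 77 measured chaperone and co-chaperone genes in the 2 libraries, with FPKM in DMEM on the x axis and FPKM in SCM on the y axis, both log scales; each point is 1 gene and the colour gives its role. The points lie close to the line of equal level, with Hspa12a above the 2-fold line and Hsp90ab1 the most abundant gene in both media.

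The 2 cytosolic HSP90 genes differed from each other between the media. Hsp90ab1, the constitutive form, stood at 948 FPKM in DMEM and 996 FPKM in SCM, a ratio of 1.05 (1.04 to 1.06). Hsp90aa1, the stress-inducible form, stood at 238 FPKM in DMEM and 149 FPKM in SCM, 1.6-fold lower in SCM (1.57 to 1.63). The level of Hsp90ab1 was thus 3.98 times that of Hsp90aa1 in DMEM and 6.69 times in SCM. Stip1, the adaptor that joins HSP70 to HSP90, had 57.7 FPKM in DMEM and 49.9 FPKM in SCM, 1.16-fold lower. Hsp90aa1 shares 47.5% of its 50-base transcript windows with other genes, so some of its reads could belong elsewhere or have been set aside in counting. The HSP90 group with Stip1 had a median of -0.07, with 2 of 4 genes above 0.

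Hsp90b1 (GRP94), the HSP90 of the ER, was the other abundant member, with 451 FPKM in DMEM and 547 FPKM in SCM, 1.21-fold higher (1.20 to 1.23). Hspa5 (BiP), the HSP70 of the ER, which also holds the sensors of the unfolded protein response inactive, had 120.5 FPKM in DMEM and 163 FPKM in SCM, 1.35-fold higher (1.33 to 1.38). Dnajc3, a J-domain partner of BiP that also restrains the kinase PERK and is named after its values were seen, had 16.2 and 19.0 FPKM, 1.17-fold higher (1.12 to 1.24). Dnajc10, a disulfide reductase with a J domain, had 43.1 and 48.7 FPKM. These 4 genes were higher in SCM by 1.13-fold to 1.35-fold, each with an interval above 1 and each within the 1.5-fold limit. The other ER members lay below 0 or level. Dnajb11, a soluble BiP partner, had 33.2 and 29.4 FPKM, and Dnajb9, a target of the unfolded protein response that acts on the sensor IRE1, had 42.1 and 39.1 FPKM. Hspa13, an HSP70-like protein of microsomes named here after its values were seen, had 10.6 and 7.81 FPKM. Over the 8 genes listed as ER chaperones, 5 lay above 0, the median was 0.09 and the summed level was 723 FPKM in DMEM and 860 FPKM in SCM. That list holds proteins whose chaperone part lies inside the ER. The table's wider annotation term endoplasmic reticulum covered 13 measured chaperone genes, of which 6 lay above and 7 below 0 with a median of -0.002, so the direction of the set depends on which genes are counted. Dnajc1, a BiP partner of the ER membrane named in the same way, had 6.55 FPKM in each library.

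The promoter windows of Hspa5, Hsp90b1 and Dnajc3 are shown because they are the chaperone windows that hold the ER stress element, the composite site of the unfolded protein response. Windows came from RefSeq on GRCm38.p6 and reach from 250 bases before the annotated start to 50 after it. They were found for 74 of the 93 genes, with 94 windows in all because some genes have several starts. The motif searched was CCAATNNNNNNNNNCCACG on both strands, where N is any base. Capitals mark each match, and sequences read 5′ to 3′ on the strand of the gene.
Hspa5, chr2:34771840-34772139, plus strand: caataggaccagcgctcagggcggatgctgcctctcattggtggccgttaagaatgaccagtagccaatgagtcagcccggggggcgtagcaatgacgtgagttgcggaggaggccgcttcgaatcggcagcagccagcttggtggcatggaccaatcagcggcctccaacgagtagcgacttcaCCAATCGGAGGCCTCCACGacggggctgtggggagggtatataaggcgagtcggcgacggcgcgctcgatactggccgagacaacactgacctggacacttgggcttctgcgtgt
Hsp90b1, chr10:86705395-86705694, minus strand: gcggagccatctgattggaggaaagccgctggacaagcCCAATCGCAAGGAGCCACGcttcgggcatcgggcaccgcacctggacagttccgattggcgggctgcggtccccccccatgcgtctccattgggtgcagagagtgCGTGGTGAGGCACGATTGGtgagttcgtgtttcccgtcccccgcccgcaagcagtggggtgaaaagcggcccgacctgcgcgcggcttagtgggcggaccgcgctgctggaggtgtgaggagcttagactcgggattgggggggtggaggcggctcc
Dnajc3, chr14:118937682-118937981, plus strand: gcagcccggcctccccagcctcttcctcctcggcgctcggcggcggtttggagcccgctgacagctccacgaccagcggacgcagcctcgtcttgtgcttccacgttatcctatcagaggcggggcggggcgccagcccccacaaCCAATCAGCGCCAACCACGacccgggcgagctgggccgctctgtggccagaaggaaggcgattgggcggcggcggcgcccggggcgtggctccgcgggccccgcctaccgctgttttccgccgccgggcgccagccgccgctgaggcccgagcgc
The element lay at -65 to -47 from the start in Hspa5, at -212 to -194 and -107 to -89 in Hsp90b1, and at -105 to -87 in Dnajc3. It occurred in 3 of 94 chaperone windows (3.19%) and in 39 of 32851 windows of all genes (0.119%). Over windows of protein-coding rows alone it occurred in 30 of 20485 (0.146%). All 3 genes lay above 0, with a median log2 difference of 0.28, while the other 59 measured chaperone genes with a window had a median of -0.07. The element occurred in 37 of 27025 genes with a window, and those outside the chaperone set were not compared by this motif. Whether the element bears on the difference was not tested. A match is a run of letters in a window, not a shown binding site.

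The rest of the ER folding machinery did not share 1 direction. From a list of 19 other ER folding and unfolded protein response genes 19 rows were measured, 10 above and 9 below 0, with a median of 0.01. Calr, the lectin chaperone calreticulin, had 1421 FPKM in DMEM and 1825 FPKM in SCM, 1.28-fold higher (1.28 to 1.29). Sdf2l1, a BiP cofactor, had 8.28 and 10.8 FPKM, whereas Herpud1, a component of ER-associated degradation, had 9.27 and 4.92 FPKM, 1.88-fold lower (1.66 to 2.14). Sil1, a nucleotide exchange factor of BiP, had 5.91 FPKM in DMEM and 9.75 FPKM in SCM, 1.65-fold higher (1.49 to 1.82). Sil1 stands in the list of HSP70 partners given below, not in this ER list. In a list of genes that ATF4 switches on in the integrated stress response, 18 of 19 measured rows lay below 0 and 14 were at least 2-fold lower, with a median of -2.02. The lowest of these were Mthfd2, Chac1 and Stc2. The ATF4 median therefore lay far below that of the chaperone genes in the same 2 libraries.

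**Figure D2:**
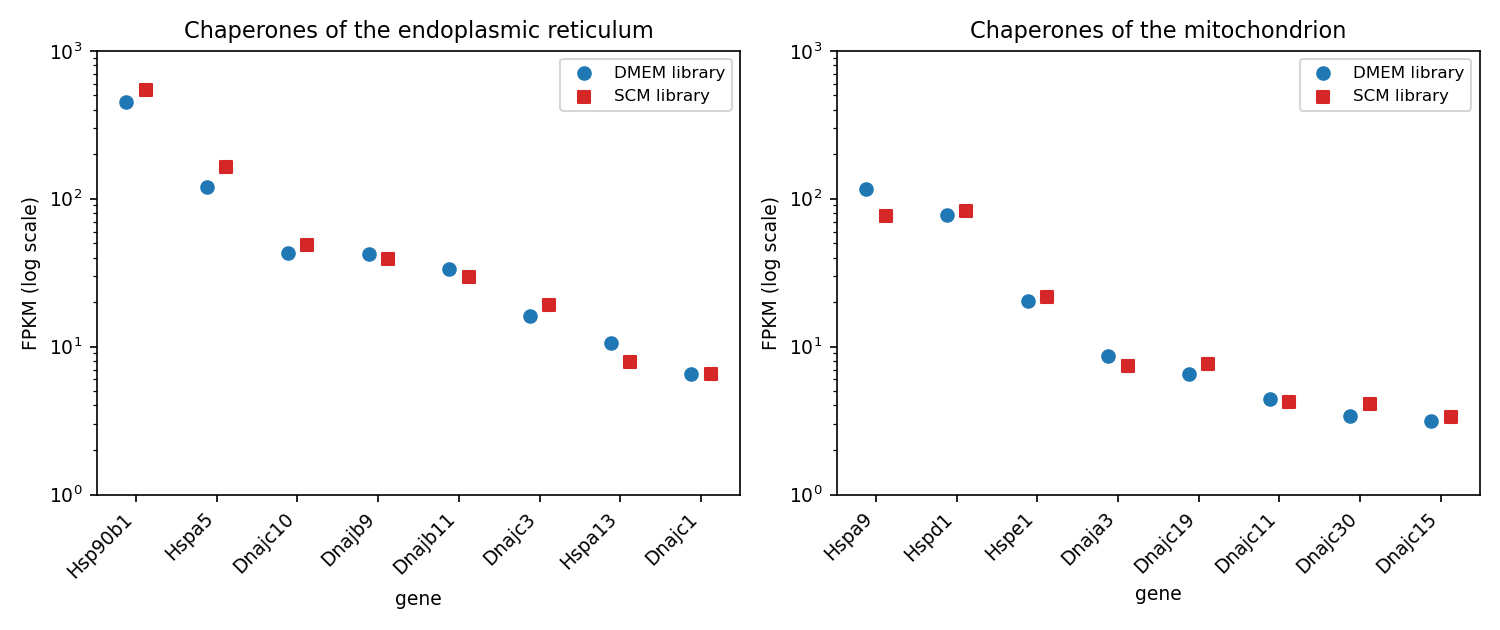
Levels of the 8 chaperone genes of the ER (left) and the 8 of the mitochondrion (right), with FPKM on a log y axis and genes in order of mean level on the x axis; circles are the DMEM library and squares the SCM library. Hsp90b1 and Hspa5 are higher in SCM, and among the mitochondrial genes Hspa9 is lower, at 76.2 FPKM against 117 FPKM in DMEM.

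The list of cytosolic chaperones that heat can induce had 12 of 13 genes measured, 4 above 0 and 8 below, beside a background of 54.4% below 0. Intervals lay above 1 for 4 genes and below 1 for 6, and those of Dnaja1 and Dnajb1 held 1. The median was -0.15, and summed levels were 1290 FPKM in DMEM and 991 FPKM in SCM. None of the 12 reached 2-fold, and 2 of them, Hsp90aa1 and Bag3, passed 1.5-fold. Hspa8 stands in this list although it is mainly a constitutive gene. Without it, a choice made after its values were seen, 4 genes lay above and 7 below 0, the median was -0.09 and the sums were 703 and 490.5 FPKM. Hspa8, the most abundant HSP70 gene, had 587 and 501 FPKM, 1.17-fold lower (1.16 to 1.18). Over the whole HSP70 group 13 of 14 genes were measured, 6 above and 7 below 0, with a median of -0.20. Hspa4, an HSP110 exchange factor named after its values were seen, had 96.1 and 79.1 FPKM. Hsph1, another exchange factor of that kind and named in the same way, had 18.1 FPKM in DMEM and 12.7 FPKM in SCM, 1.42-fold lower (1.36 to 1.49). The strictly stress-inducible Hspa1a and Hspa1b, named after their values were seen, went the other way, with 1.96 and 2.54 FPKM for Hspa1a and 5.15 and 6.70 FPKM for Hspa1b. These neighbouring copies are near identical and share 66.3% and 62.3% of their 50-base windows with other genes, so how their reads were divided is uncertain. Their level in both media was low beside Hspa8. Hspa2, a constitutive HSP70 best known from the testis and named after its values were seen, had 19.7 FPKM in DMEM and 27.5 FPKM in SCM, 1.40-fold higher (1.31 to 1.49).

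Hspa12a was the chaperone gene furthest from equality. It encodes a divergent HSP70-like protein and lies on chromosome 19, at 58784182 to 58932086 on the minus strand in the coordinates of the deposited table, whose build could not be settled. Its level was 1.40 FPKM in DMEM, from 375 reads, against 4.05 FPKM in SCM, from 1364 reads. That is 2.89-fold higher (2.57 to 3.24), with a log2 difference of 1.07. Its level was low in both libraries, at rank 10706 of all rows in DMEM and 7292 in SCM. Both of its promoter windows lacked the motifs searched below. Its sister gene Hspa12b had 0 reads in DMEM and 3 in SCM. The call at 2-fold does not hold with a pseudocount of 3 FPKM, where the log2 difference is 0.68.

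Hspa9 (mortalin), the HSP70 of the mitochondrial matrix, stood at 117 FPKM in DMEM and 76.2 FPKM in SCM, 1.53-fold lower (1.49 to 1.57). The chaperonin that receives proteins after it did not move alongside. Hspd1 (HSP60), which forms the mitochondrial folding chamber, had 77.4 and 82.3 FPKM, and its lid Hspe1 (HSP10), named after its values were seen, had 20.4 and 21.7 FPKM. Hspa9 thus stood at 1.51 times the level of Hspd1 in DMEM and at 0.926 times its level in SCM, while the ratio of Hspd1 to Hspe1 was 3.80 in DMEM and 3.79 in SCM. Hspd1 and Hspe1 overlap in the table and share 42.1% and 22.8% of their windows with other genes. The J-domain partner Dnaja3 of the matrix had 8.65 and 7.42 FPKM. Of the 8 genes listed as mitochondrial chaperones 5 lay above 0, and their summed level was 241 FPKM in DMEM and 207 FPKM in SCM. In a list of 11 other mitochondrial chaperones and proteases, 4 lay above and 7 below 0, with a median of -0.05 and 0 past 1.5-fold. Its outermost genes were the protease subunit Clpp (14.7 and 11.9 FPKM), the protease Lonp1 (17.2 and 14.3 FPKM) and Timm44 (16.3 and 14.2 FPKM), which anchors Hspa9 at the import channel.

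**Figure D3:**
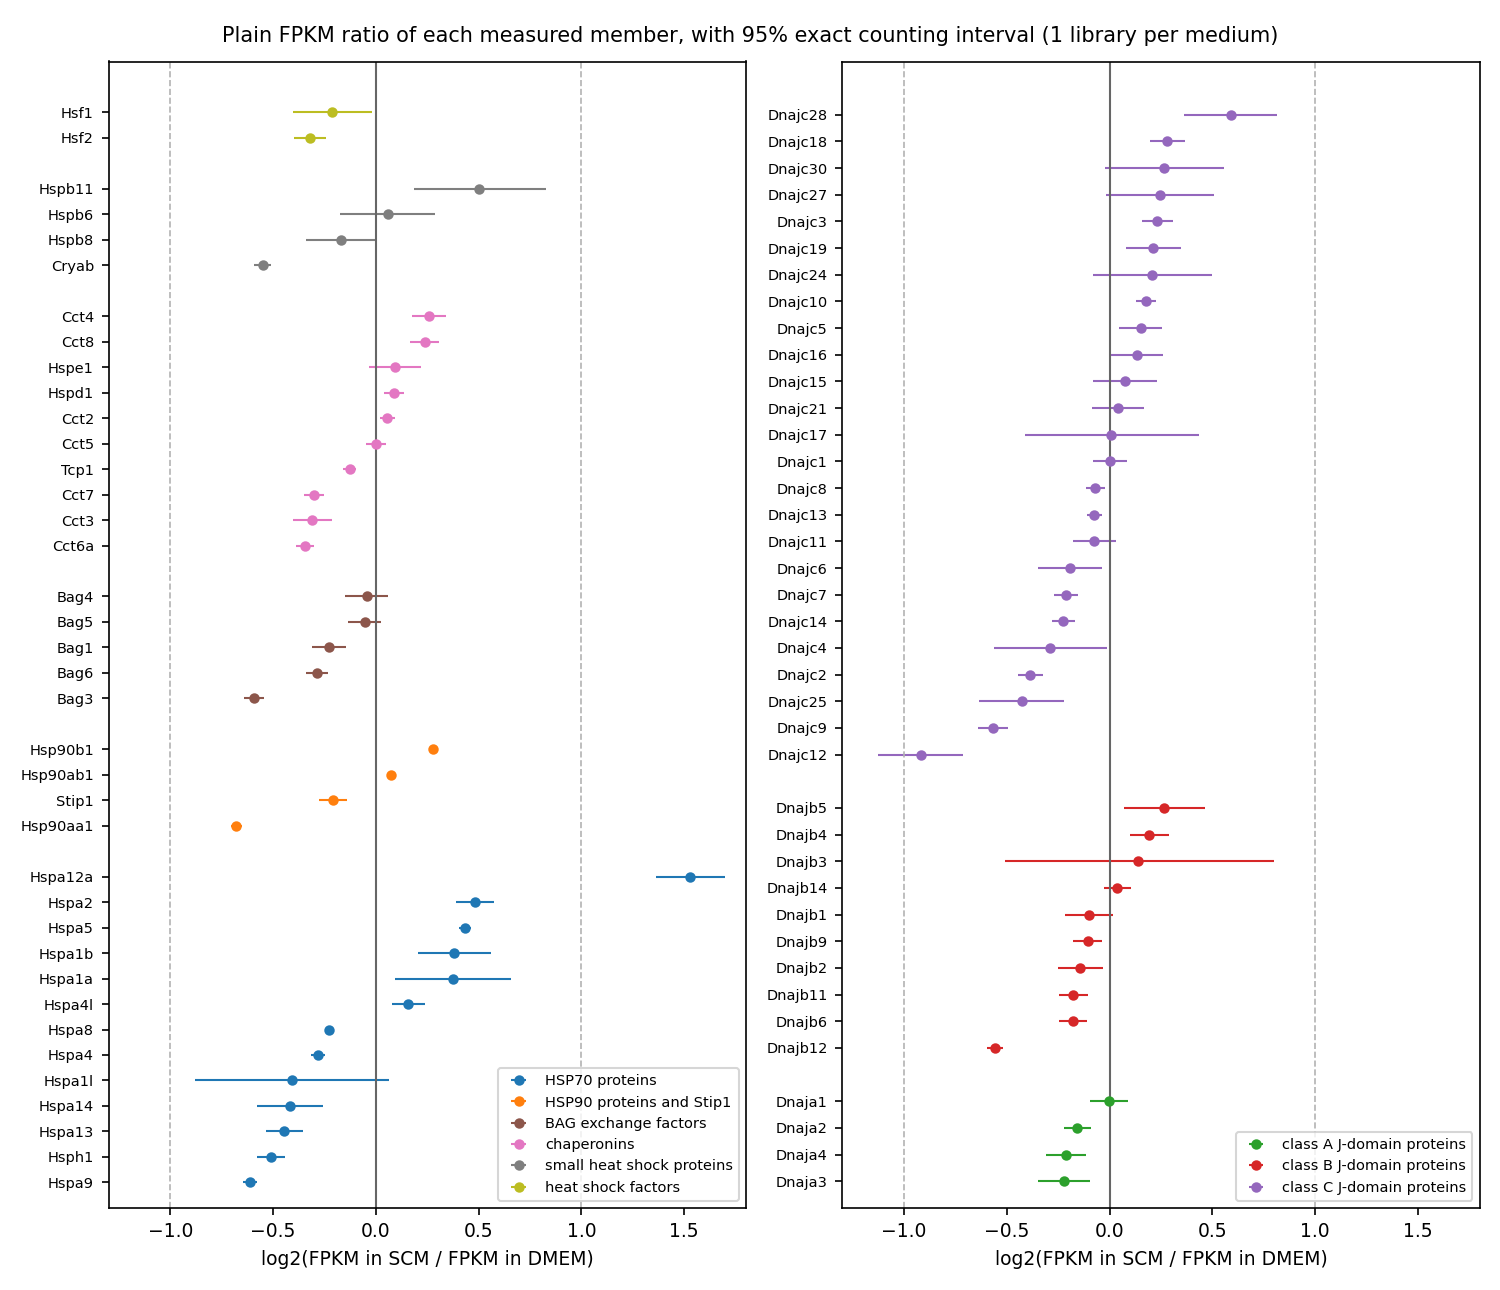
Log2 of the plain FPKM ratio of SCM to DMEM on the x axis for each of the 77 measured chaperone genes, grouped by role on the y axis; points are the ratios of 1 library per medium, bars the 95% exact counting intervals and dashed lines 2-fold. Hspa12a lies apart on the higher side with a ratio of 2.89, and Dnajc12 is the lowest point, 1.89-fold lower.

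The BAG group, set by gene name, lay below 0 in 5 of 5 measured genes, with a median of -0.22. BAG proteins are known as exchange factors that open the nucleotide pocket of HSP70, but this role was not checked for each member. Bag3, which joins HSP70 and small heat shock proteins to selective autophagy, had 104 FPKM in DMEM and 68.7 FPKM in SCM, 1.51-fold lower (1.46 to 1.56). Its log2 difference of -0.59 lay just past the 1.5-fold limit. Bag1, which links HSP70 to the proteasome, had 57.0 and 48.7 FPKM, 1.17-fold lower, and Bag5 had 31.8 and 30.6 FPKM with an interval that held 1. Bag6, which guards tail-anchored proteins before their insertion, had 29.7 and 24.3 FPKM, 1.22-fold lower (1.18 to 1.27), and Bag4 had 6.58 and 6.38 FPKM; both are named to complete the group. Bag2 was under the filter, at 28 reads in DMEM and 92 in SCM, and lay above 0. Of 10 HSP70 partners outside the rule 8 lay below 0, with a median of -0.11. The 2 above 0 include Sil1, given above, at 1.65-fold higher. The ubiquitin ligase Stub1 (CHIP), which tags HSP70 clients, had 23.5 FPKM in DMEM and 14.6 FPKM in SCM, 1.61-fold lower (1.5 to 1.73), and the exchange factor Hspbp1 had 8.21 and 6.0 FPKM. Stub1 overlaps the measured gene Jmjd8 in the table.

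Among J-domain proteins, 39 of 45 were measured, 18 above and 21 below 0, with a median of -0.06. The class A proteins, which carry a zinc finger beside the J domain, lay below 0 in 4 of 4 genes with a median of -0.17, and in 3 of 4 after scaling, where Dnaja1 lay above 0. Dnaja2 had 40.6 and 36.4 FPKM and Dnaja4 15.9 and 13.7 FPKM. Dnaja4 overlaps the measured gene Wdr61, and 42.7% of its windows occur in that gene. Dnaja1, named after its values were seen, was level at 6.64 and 6.63 FPKM in the 2 libraries, and 20.6% of its windows occur in other genes. Class B had 10 of 13 measured, with a median of -0.10. Its most abundant member, Dnajb12, which sits in the ER membrane with its J domain facing the cytosol, had 115 FPKM in DMEM and 78.1 FPKM in SCM, 1.47-fold lower (1.43 to 1.51). Class C, the mixed class with many specialised proteins, had 25 of 28 measured, 14 above and 11 below 0, and a median of 0.01.

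Within class C, Dnajc12 was the 1 gene past 1.5-fold. It works with HSP70 on the aromatic amino acid hydroxylases, and its level was 3.76 FPKM in DMEM, from 490 reads, against 1.99 FPKM in SCM, from 327 reads, 1.89-fold lower (1.64 to 2.18). Dnajc9, a histone chaperone with a J domain, had 45.7 and 30.9 FPKM, 1.48-fold lower (1.41 to 1.56). Dnajc8, a splicing-associated member and the most abundant of the class, stood at 91.4 and 87.0 FPKM. Dnajc2, a ribosome-bound partner of nascent chains, had 30.8 and 23.6 FPKM, 1.31-fold lower (1.25 to 1.36). The highest log2 difference in the class, 0.44, was that of Dnajc28, at 2.39 FPKM in DMEM and 3.60 FPKM in SCM, which like Dnajc2 is named after its values were seen.

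Further J-domain members are named after their values were seen. Dnajb1, the main inducible partner of HSP70 in the cytosol, had 12 and 11.2 FPKM with an interval that held 1. Dnajb6, which suppresses the aggregation of polyglutamine proteins, had 18.8 and 16.6 FPKM, and Dnajb2, a neuronal form that sorts clients to the proteasome, had 10.2 and 9.27 FPKM. Dnajb6 and Dnajb2 had intervals below 1, while Dnajb4 at 5.86 and 6.70 FPKM and Dnajb5 at 2.05 and 2.46 FPKM lay above it. Dnajc7, which links HSP70 and HSP90, had 18.1 and 15.7 FPKM. Vesicle-related members went in both directions. Dnajc5, the cysteine string protein of synaptic vesicles, had 6.15 and 6.83 FPKM, 1.11-fold higher (1.03 to 1.19). Dnajc6 (auxilin), which uncoats clathrin vesicles, had 3.68 and 3.22 FPKM, and Dnajc13, an endosomal protein, had 30.4 and 28.8 FPKM. Of the J-domain proteins at the mitochondrial import motor, Dnajc19 had 6.57 and 7.61 FPKM and Dnajc15 had 3.15 and 3.32 FPKM.

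The chaperonin subunits varied in both directions. The cytosolic chaperonin TRiC is a double ring of 8 different subunits present in equal number, and all 8 genes were measured, with 3 above and 5 below 0 and a median of -0.06. Cct2 had 143 FPKM in DMEM and 148 FPKM in SCM, a ratio of 1.04 (1.01 to 1.07). Tcp1, the alpha subunit, had 109.6 and 100.3 FPKM, 1.09-fold lower (1.07 to 1.12). The other subunits, named to complete the ring, ranged in DMEM from 9.48 FPKM for Cct3 to 83.1 FPKM for Cct6a and in SCM from 7.66 FPKM for Cct3 to 76.0 FPKM for Cct5. Cct6a was the lowest in log2 difference at -0.34, with 83.1 and 65.5 FPKM, and Cct4 the highest at 0.24, with 15.9 and 19.0 FPKM. Cct5 was level at 76.0 FPKM in both libraries and lay above 0 after scaling. The testis forms Cct6b and Cct8l1 had at most 3 reads in each library. Cct6a, Cct7, Cct8 and Tcp1 overlap other measured genes in the table. How strand was treated in counting is not stated, so reads from overlapping genes cannot be told apart.

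**Figure D4:**
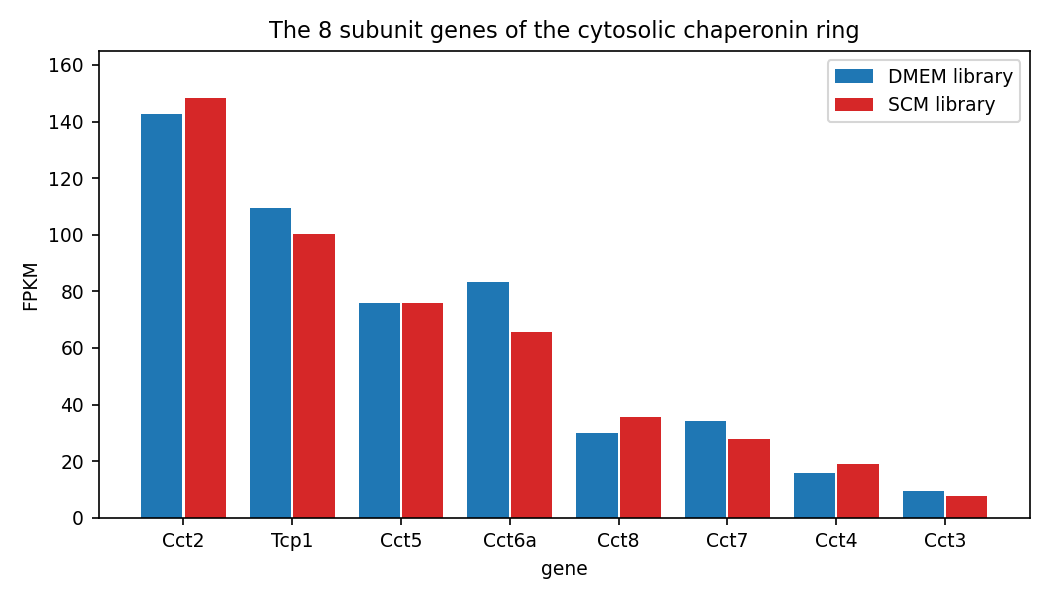
FPKM on the y axis of the 8 subunit genes of the cytosolic chaperonin ring, in order of mean level on the x axis; blue bars are the DMEM library and red bars the SCM library. Subunit levels span 9.48 to 143 FPKM in DMEM, a wider range than the difference between the libraries for any 1 subunit. That span depends on the gene lengths used, 6370 bases for Cct3 and 2557 for Cct2, whose DMEM reads were 1757 and 10612.

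Prefoldin hands actin and tubulin to this ring, and the tubulin cofactors take tubulin from it. All 13 genes of a list of prefoldin subunits and chaperonin partners were measured, and 13 of 13 lay below 0, with a median of -0.25 (12 of 13 after scaling). None passed 1.5-fold. Tbca, which binds beta-tubulin, had 119 FPKM in DMEM and 88.9 FPKM in SCM, 1.34-fold lower (1.27 to 1.41). The prefoldin subunit Pfdn2 had 16.4 and 11.8 FPKM, and the alpha-tubulin cofactor Tbce, which overlaps the measured gene B3galnt2, had 5.74 and 3.99 FPKM.

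The HSP90 partner list held the largest ratio among the folding lists. Fkbp5, an immunophilin of steroid receptor complexes and a known glucocorticoid target, stood at 3.66 FPKM in DMEM, from 1008 reads, against 14.8 FPKM in SCM, from 5141 reads, 4.05-fold higher (3.78 to 4.33). Its relative Fkbp4 lay on the other side, at 48.8 and 35.5 FPKM, as did the HSP90 partner Chordc1 at 15.8 and 10.9 FPKM. Of the 13 HSP90 partners 3 lay above and 10 below 0, with a median of -0.19.

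Small heat shock proteins were carried by 1 gene. Cryab (alpha-B crystallin), an ATP-independent holdase abundant in glia and muscle, stood at 247 FPKM in DMEM and 169 FPKM in SCM, 1.46-fold lower (1.42 to 1.51). Hspb8, which works with Bag3, had 9.12 and 8.11 FPKM, and Hspb6 had 4.08 and 4.25 FPKM, both with intervals that held 1. Of the 9 genes of the group 4 were measured, with a median of -0.05. Hspb11, a member of the intraflagellar transport complex despite its name, had 2.11 FPKM in DMEM and 2.99 FPKM in SCM, 1.42-fold higher (1.14 to 1.78), and was named after its values were seen. Hspb1 (HSP27) had 1 read in DMEM and 12 in SCM and so was not measured. Its transcript shares 50.1% of its windows with other genes, so reads of it could have been set aside in counting. Hspb2, whose row overlaps that of Cryab, had 8 and 24 reads.

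Clu, the extracellular chaperone, had 0 reads in both libraries, and the limit of 3 reads stands for 0.0300 FPKM in the DMEM library and 0.0238 FPKM in the SCM library. Clusterin is commonly found in glia, and how reads were assigned to its row could not be checked here, so the 0 describes the row and not the expression of the gene. Of the 93 genes, 16 were under the filter, and 7 of these had 0 reads in both libraries: Clu, Dnajb13, Dnajb8, Dnajc5b, Dnajc5g, Hspb3 and Hspb9. The other 9, Bag2, Cct6b, Cct8l1, Dnajb7, Dnajc22, Hspa12b, Hspb1, Hspb2 and Hspb7, had at most 0.820 FPKM in either library.

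Both heat shock factors were slightly lower in SCM, with Hsf1 below and Hsf2 above the median level of all measured protein-coding rows, 7.28 FPKM in DMEM and 7.15 FPKM in SCM. Hsf1, the main activator after heat, had 2.06 FPKM in DMEM and 1.78 FPKM in SCM, 1.16-fold lower (1.01 to 1.32), and Hsf2 had 9.51 and 7.60 FPKM, 1.25-fold lower (1.18 to 1.32). Hsf1 is regulated mainly at the protein level, which these libraries do not measure. In a list of other regulators and targets of these factors 9 of 10 genes were measured, 5 above and 4 below 0, with a median of 0.01. The metallothionein Mt2 led it, at 15.7 and 24.4 FPKM, 1.55-fold higher (1.33 to 1.8). Fkbp4 and Chordc1, given above, also stand in this list.

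The heat shock element, the site of the heat shock factors, was searched in the same promoter windows. In its short form it has 2 units, GAANNTTC or TTCNNGAA, and in its longer form 3, GAANNTTCNNGAA or TTCNNGAANNTTC, on both strands, and each longer match contains shorter ones. The windows below are shown because they hold the longer form in the mitochondrial chaperonin pair and in Hsph1, and the short form in Bag3, the 1 gene with a window among the 4 that were lower at 1.5-fold.
Hspd1, chr1:55087883-55088182, minus strand: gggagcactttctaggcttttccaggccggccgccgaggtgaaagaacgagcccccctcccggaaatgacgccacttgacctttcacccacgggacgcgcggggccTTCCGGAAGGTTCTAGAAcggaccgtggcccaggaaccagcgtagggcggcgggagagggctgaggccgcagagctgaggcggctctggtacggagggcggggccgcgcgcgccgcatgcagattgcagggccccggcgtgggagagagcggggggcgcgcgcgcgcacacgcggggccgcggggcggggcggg
Hsph1, chr5:149636266-149636565, minus strand: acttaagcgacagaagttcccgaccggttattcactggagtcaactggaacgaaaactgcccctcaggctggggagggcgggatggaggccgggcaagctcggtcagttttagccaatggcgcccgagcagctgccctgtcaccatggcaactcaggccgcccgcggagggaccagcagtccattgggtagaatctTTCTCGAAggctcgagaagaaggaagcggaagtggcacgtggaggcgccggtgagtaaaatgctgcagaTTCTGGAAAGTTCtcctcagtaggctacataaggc
Bag3, chr7:128523333-128523632, plus strand: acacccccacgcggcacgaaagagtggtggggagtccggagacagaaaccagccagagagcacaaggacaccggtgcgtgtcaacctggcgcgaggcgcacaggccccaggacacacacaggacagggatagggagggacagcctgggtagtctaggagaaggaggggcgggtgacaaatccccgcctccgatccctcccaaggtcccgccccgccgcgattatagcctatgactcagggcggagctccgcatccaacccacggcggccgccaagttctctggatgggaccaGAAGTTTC
Capitals mark the matches. The run in Hspd1 lies at -144 to -127, and the window of the divergent neighbour Hspe1 shares 285 bases with it on the opposite strand, so the match counts for both genes. In Hsph1 the longer form lies at 16 to 28 after the start with a short match at -54 to -47, and in Bag3 the short form lies at 43 to 50 after it. The longer form occurred in 6 of 94 chaperone windows (6.38%), in Dnajb6, Hspd1, Hspe1 and Hsph1, and in 0.603% of all 32851 windows. Overlapping windows of Dnajb6 hold the same match, as do those of Hsph1, so the 6 windows are not separate sites. By gene, the longer form occurred in 4 of 74 chaperone genes (5.41%) and in 0.662% of all 27025 genes with a window. The short form occurred in 23 chaperone windows (24.5%) and in 15.1% of all windows. By gene these shares were 28.4% and 17.0%. Over windows of protein-coding rows alone, the longer form occurred in 0.508% and the short form in 13.7%, and by gene in 0.583% and 15.8%.

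Genes with and without the heat shock element lay on both sides of 0. Of the 17 measured genes with a short match 9 lay above 0 and 8 below, with a median of 0.05, and of the 45 without one 19 lay above and 26 below, with a median of -0.09. These medians leave out the genes without a window, so they do not describe the whole set. No window was found for Hsp90aa1, Hsp90ab1, Hspa8, Hspa9, Hspa13, Cryab, Hspb2, Hsf1, Clu, Bag4 or Cct4. The same holds for Dnajc2, Dnajc5, Dnajc5b, Dnajc11, Dnajc12, Dnajc18, Dnajc22 and Dnajc30. The 4 genes with the longer form ran from -0.48 for Hsph1 to 0.09 for Hspd1 and Hspe1. The windows of Hspa1a and Hspa1b are identical at 296 of 300 positions (98.7%), so their matches are not separate observations.

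**Figure D5:**
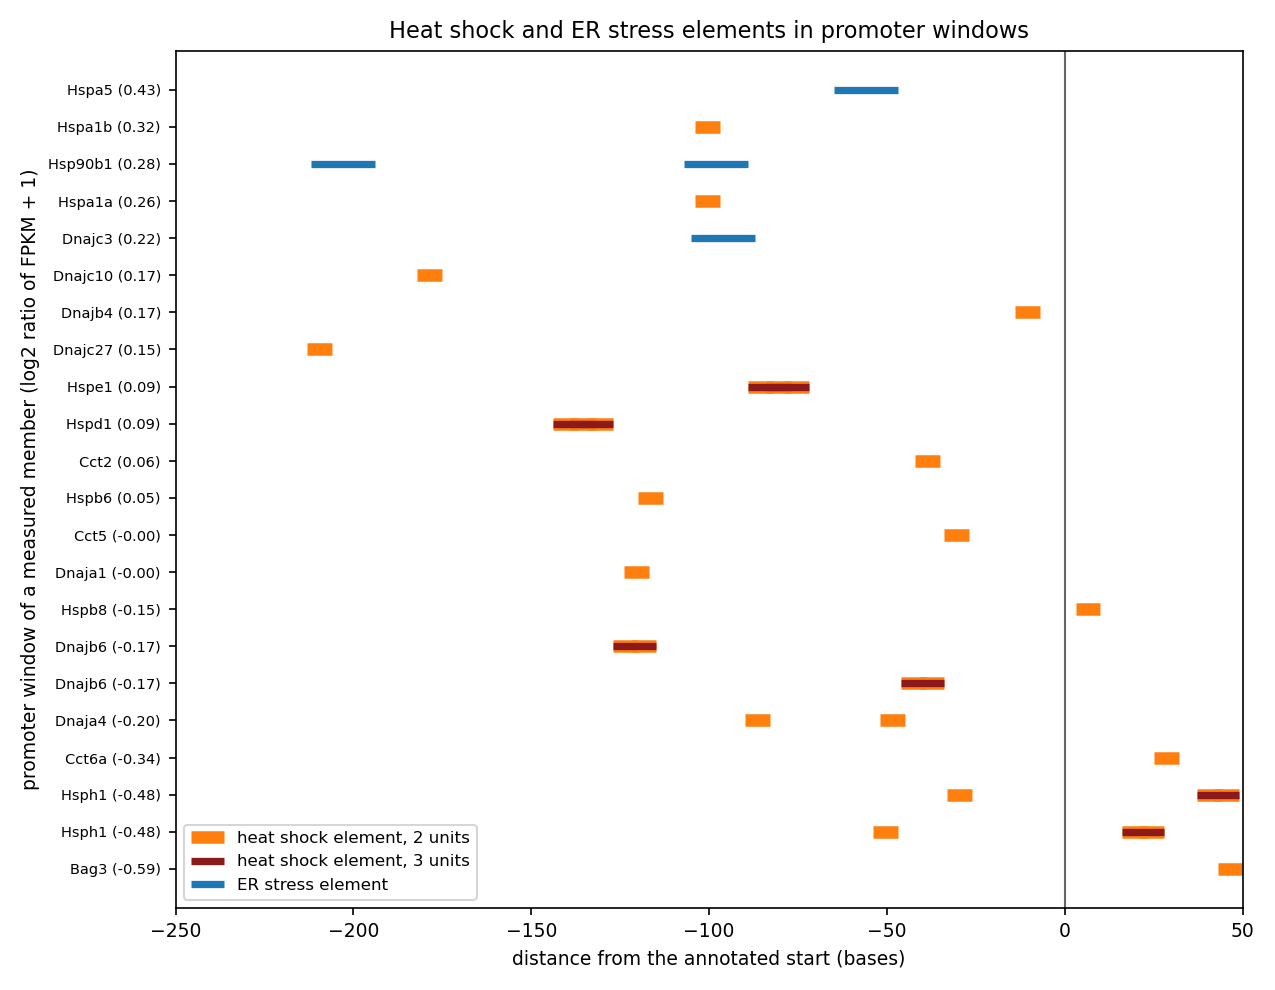
Positions of the 3 motifs in promoter windows of measured chaperone genes, with the distance from the annotated start in bases on the x axis and 1 window per line on the y axis, ordered by the log2 difference given after the gene name. Bars are matches; the ER stress elements of Hspa5, Hsp90b1 and Dnajc3 lie in the upper lines, and heat shock elements occur over the whole range from 0.32 for Hspa1b to -0.59 for Bag3.

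Some of these values rest on rows that reads could share. Of the 93 genes 19 overlap another measured gene in the table, and the 18 of these that were measured had a median of 0.00, with 9 above and 9 below 0. In 21 genes more than 10% of the 50-base windows of the transcripts occur in another gene. Of the 10 most abundant genes, Hsp90aa1 with 47.5%, Hspa8 with 39.4%, Tcp1 with 13.9% and Cryab with 13.3% are among them. Of 17 non-coding rows that carry the name of a chaperone gene with the ending -ps, 2 were measured. That count leaves out partners with other names. Gm12346 shares 41.8% of the Hsp90aa1 windows, and Gm15459 shares 34.6% of the Hspa8 windows. The part of shared reads in the differences was not tested.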

How the data were processed

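RNA of the 2 cultures was made into stranded total RNA libraries, per the labels' protocols, and the values are FPKM as deposited by the authors in 1 table with gene length, biotype and coordinates. The submitters' processing notes list the aligner STAR 2.7.9a, the counter featureCounts 2.0.1, the trimmers cutadapt 3.1, Trimmomatic 0.39 and Trim Galore, and the builds GRCm38.p6 and mm10. For their order, parameters, strand setting and the read length, the sources used here give nothing. Columns were matched to the samples by the name of the medium, and 0 columns of other samples were present. FPKM times gene length gave whole multiples of 1 step, so reads were recovered, 100% of rows within 0.01 of a whole read. No count model was fitted and no p-value computed, since each medium had 1 library.

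Differences were taken on the log2 scale between SCM and DMEM after adding a pseudocount of 1 FPKM, with a filter of 1 FPKM in 1 or both libraries, read at 2-fold and 1.5-fold. The floor for a count of 0 was 3 reads. Exact intervals came from scipy 1.17.1 under Python 3.11.15. The steps were tested on simulated reads with counting error alone. That test did not cover variation between cultures, amplified copies or shared reads. Of the 93 genes 4 had the same position in GENCODE M21 and 85 the same span elsewhere, so the build of the table's coordinates was not settled. Shared sequence was taken as 50-base windows of GENCODE M21 transcripts found in another gene. Named genes were the measured members past 1.5-fold, the 3 most abundant of each role, Hsf1, Hsf2, Clu, Cryab, Stip1 and Tcp1, and up to 3 genes of each partner list with the largest absolute difference; any other gene was named after its values were seen. The members, lists and limits were chosen with earlier results of these data known. Alternatives changed the pseudocount, the filter, the scaling and the rows that entered the summed share.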

Additional observations from a re-analysis of the deposited data

How the results depend on the processing

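With 1 library per medium, leaving out a replicate was not possible, and neither variation between cultures nor an error of the differences could be estimated. No paired analysis was possible because each medium has 1 library and the column numbers differ. The count of genes at least 2-fold higher, 1 as reported, was 0 with a pseudocount of 3 FPKM and 0 with a filter of 5 FPKM, which leaves Hspa12a out. The count at least 1.5-fold higher was 0 with that filter. The count at least 1.5-fold lower, 4 as reported, was 2 with a pseudocount of 3 FPKM (Hsp90aa1 and Hspa9) and 2 with the median ratio scaled to 0 (Dnajc12 and Hsp90aa1), a factor of 1.03. The HSP70 median was -0.10 with a pseudocount of 3 FPKM and -0.084 with no filter, the HSP90 median -0.030 after scaling, and the BAG median -0.14 with no filter. The median of the small heat shock proteins, -0.05 as reported, was 0.18 with no filter, a change of sign, and -0.35 with a filter of 5 FPKM, which leaves 2 genes. The median of the heat-inducible cytosolic list was -0.09 without Hspa8, against -0.15 as reported. The ATF4 list median was -1.44 with a pseudocount of 3 FPKM. The summed share over protein-coding rows alone was 1.77% of reads in DMEM and 1.67% in SCM, and without Hsp90ab1 and Hspa8 it was 1.12% and 1.05%. For these moves the cause was not tested, except where fewer genes or rows entered. All 29 measured genes named by the rule among the members kept their sign under 3 alternatives, a pseudocount of 0.1 FPKM, one of 3 FPKM and scaling. Over all 77 measured members scaling changed the sign of 2, Cct5 and Dnaja1. The scaling of the partner lists was added after the data were seen, and their medians kept their sign there. Genes with few reads, such as Hspb1 and Hspb2, are limited by depth.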
